A study of Mus musculus with 6 samples.

Results

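The adult α and β globin genes were followed with a small set of genes of the red cell membrane and of erythroid control. The libraries are described by the authors as bone endothelial cells (BECs) of adult mice. The set was given as 9 genes: the globins Hba-a1, Hba-a2, Hbb-bs and Hbb-bt, the α globin chaperone gene Ahsp, the membrane genes Slc4a1 and Epb42, the transcription factor gene Klf1 and the receptor gene Epor. Of the 37991 genes in the count table, 8 of these 9 were found by matching Ensembl identifiers to mouse gene symbols, and all 8 passed the filter on low counts. Ahsp could not be matched to a row and was not analysed here. The libraries came from c57/Bl6 mice 12 weeks old, 3 from females and 3 from males, with no treatment or genetic change named in the labels. The cells came from the tibia per the labels, or from tibia and femur per the methods, and were selected by endomucin, a surface glycoprotein of venous and sinusoidal endothelium, after crushing, collagenase digestion and lysis of red blood cells. According to the methods, the samples of best RNA quality were chosen for sequencing, and the labels do not say whether a sample held cells of 1 animal or of several. The comparison was between the sexes, males over females.

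Haemoglobin is built from α and β globin chains with haem, and marrow is where red cells form in adult mice. Erythroid precursors depend on erythropoietin, which acts through its receptor Epor, and on Klf1, a zinc finger factor that binds CACCC elements and activates β globin among many erythroid genes. Later the cells make large amounts of globin, together with the anion exchanger band 3 (Slc4a1) and its partner protein 4.2 (Epb42), which tie the membrane to the spectrin skeleton, and reticulocytes keep globin mRNA after the nucleus is lost.

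The library totals ran from 47678806 to 58325745 counts, and 3 counts, taken as the smallest level to be read, were 0.0514 to 0.0629 CPM (counts scaled to library size). Of the marker genes of other cells, 0 were called with edgeR at an adjusted p of 0.05, but the summed levels of 3 of the 6 marker lists did not overlap between the sexes. With no adjustment, at p under 0.05, 9 neutrophil genes were higher in males, and 10 endothelial and 10 macrophage genes were lower, where 9.79% of all genes reached this p in either direction. DESeq2 called 7, 6 and 1 of them, against 1.31% of all genes it tested. The summed level of 12 neutrophil genes was 19242 to 23561 CPM in females and 32740 to 44448 CPM in males, and the neutrophil calprotectin genes S100a9 and S100a8 were its most abundant members. Mpo and Elane of this list, named after their values were seen, overlapped between the sexes. Their log2 differences were -0.61 ± 0.34 and 0.17 ± 0.33 (SE). The sum of 14 endothelial genes was 351 to 475 CPM in females and 222 to 301 CPM in males. The endomucin gene Emcn itself was at 5.35 to 10.5 CPM in females and 3.09 to 6.73 CPM in males, and Cdh5, the gene of the endothelial junction protein VE-cadherin, was at 15.8 to 32.6 and 6.50 to 16.1 CPM. Pecam1 and Stab2, an adhesion gene and a scavenger receptor gene of sinusoids, were the most abundant of this list. For Stab2 all males were lower, as for 7.29% of all genes. The 10 marrow macrophage genes, led by Vcam1 and C1qa, summed to 5235 to 5493 CPM in females and 3360 to 4571 CPM in males. The sums overlapped for 8 B cell genes (2883 to 3279 and 2911 to 3354 CPM), led by Cd79b and Cd79a. They also overlapped for 8 stromal genes, led by Cxcl12 and Col1a2 (1448 to 3009 and 1202 to 2342 CPM), and for 8 megakaryocyte and platelet genes, led by Pf4 and Ppbp (51.9 to 201 and 38.6 to 102 CPM). Of these last 3 lists DESeq2 called 1 gene, the stromal and fat cell gene Adipoq, named after its values were seen, at 76.5 to 162 CPM in females and 22.1 to 58.0 CPM in males. In every library the neutrophil, macrophage and B cell sums were above the endothelial sum. The levels below can thus not be read as those of endothelial cells alone. The part of these cell types in the results below was not tested.

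On GRCm39, the α globin genes both lie on the plus strand of chromosome 11, Hba-a1 at chr11:32233186-32234504 and Hba-a2 at chr11:32246168-32247320. The β globin genes lie on the minus strand of chromosome 7, Hbb-bt at chr7:103461727-103465047 and Hbb-bs at chr7:103475730-103482989. Slc4a1 is at chr11:102239650-102257029, Epb42 at chr2:120848372-120867553, Klf1 at chr8:85628557-85631934 and Epor at chr9:21870192-21874879, and all 8 are annotated as protein-coding. Counts of each pair of globins cannot be fully separated. Of all stretches of 40 bases in the main Hba-a2 transcript, 93.4% also occurred in that of Hba-a1, and of stretches of 100 bases 81.8% did. For Hbb-bs against Hbb-bt these shares were 62.6% and 58.6%. Whether a read that fits both copies was counted for 1, both or neither is not given in the sources used here, so the values of single globin copies are uncertain.

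The promoters of the globins and of Epor are shown because these genes gave the values that stood farthest apart between the sexes, the globins in one direction and Epor in the other. Each is the 250 bases before the RefSeq start of the gene on the older build GRCm38.p6, read 5′ to 3′ on the strand of the gene. Capitals mark matches on either strand to CCNCNCCC (a CACCC element as bound by Klf1), to the GATA factor sites AGATAA and AGATAG, and TGATAA as well as TGATAG, to CCAAT and to TATAA, and matches that overlap run together. The 250 bases are those of chr11:32283422-32283671 (plus strand) for Hba-a1, chr7:103827929-103828178 (minus strand) for Hbb-bs, chr7:103813924-103814173 (minus strand) for Hbb-bt and chr9:21963577-21963826 (minus strand) for Epor.
Hba-a1: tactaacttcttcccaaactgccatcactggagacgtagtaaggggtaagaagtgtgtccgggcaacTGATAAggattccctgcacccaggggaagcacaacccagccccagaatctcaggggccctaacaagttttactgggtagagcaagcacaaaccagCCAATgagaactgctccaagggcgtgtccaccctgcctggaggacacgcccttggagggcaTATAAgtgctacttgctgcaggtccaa
Hbb-bs: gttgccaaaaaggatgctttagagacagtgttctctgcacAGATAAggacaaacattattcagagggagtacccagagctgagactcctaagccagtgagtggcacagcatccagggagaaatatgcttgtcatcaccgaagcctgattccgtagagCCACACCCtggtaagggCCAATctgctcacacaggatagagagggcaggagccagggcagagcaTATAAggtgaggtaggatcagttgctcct
Hbb-bt: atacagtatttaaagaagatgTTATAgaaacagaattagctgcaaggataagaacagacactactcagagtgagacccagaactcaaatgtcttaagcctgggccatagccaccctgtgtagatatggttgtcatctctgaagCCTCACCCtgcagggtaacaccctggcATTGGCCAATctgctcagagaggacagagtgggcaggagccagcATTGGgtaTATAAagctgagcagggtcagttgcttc
Epor: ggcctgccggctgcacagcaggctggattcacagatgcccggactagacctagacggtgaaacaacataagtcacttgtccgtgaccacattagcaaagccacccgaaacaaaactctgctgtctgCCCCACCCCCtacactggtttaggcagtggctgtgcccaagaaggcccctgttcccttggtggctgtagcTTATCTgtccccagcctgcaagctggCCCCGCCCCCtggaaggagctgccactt
The 3 globin promoters each held a TATAA match, with its first base 27 to 29 bases before the start, and a CCAAT match farther upstream. The Hba-a2 promoter is not shown because it was the same sequence displaced by 3 bases, with 247 of 247 bases equal, whereas Hbb-bs and Hbb-bt were equal at 127 of 249 aligned bases without gaps. A CCNCNCCC match began 93 bases before the start in Hbb-bs and 107 bases before it in Hbb-bt, and none was in the Hba-a1 window. The Epor window held no TATAA and lacked CCAAT as well. It held a GATA match 54 bases before the start and 4 CCNCNCCC matches, which overlap in pairs. The Klf1 window held a GATA match 80 bases and a CCAAT match 64 bases before the start. Such short motifs are common: of 32851 promoter windows of this length, 45.9% held CCNCNCCC, 26.5% a GATA match, 33.9% CCAAT and 22.8% TATAA. A match is a description of the letters and not a bound site. RefSeq sequence was found for 7 of the 9 genes, the exceptions being Slc4a1 and Ahsp.

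All 4 adult globin genes were higher in every male library than in every female library, by 1.42-fold to 1.49-fold, but no member of the set was called as different between the sexes. With edgeR's quasi-likelihood test and Benjamini-Hochberg adjustment over 19480 genes, 0 of the 8 members passed an adjusted p of 0.05, against 0.0411% of all genes tested (8 genes). DESeq2 called none of them either. At an unadjusted p under 0.05, a level that 9.79% of all genes reached, there were 5 of the 8 members, the 4 globins (higher in males) and Epor (lower in males). For 4 members the female and male libraries were fully separate, each with all males higher, as they did for 7.25% of all genes in this direction, and for no member with all males lower, as for 7.29% of all genes. The copies of each globin pair share reads and are not separate observations. In RNA from a bulk of cells, more cells of a type and more RNA per cell cannot be told apart.

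The α globin Hba-a1 was at 3243, 4158 and 4310 CPM in female replicates 1, 2 and 3 and at 7202, 4731 and 4684 CPM in male replicates 1, 2 and 3. Male replicate 1 stood far above the other 5 libraries, and the other males lay just above the highest female. The fitted difference was 0.50 ± 0.21 on the log2 scale (SE, n = 3 per sex), with an adjusted p of 0.48 in edgeR. Hba-a2, which encodes the same α chain, gave 3154, 4050 and 4196 CPM in females and 7045, 4639 and 4588 CPM in males. Its libraries fell in the same order, with a log2 difference of 0.51 ± 0.21 and an adjusted p of 0.47 in edgeR. Without male replicate 1 the differences of these α globins were 0.27 and 0.28.

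The β globin Hbb-bs was at 3100, 3954 and 4760 CPM in females and at 6921, 4915 and 5509 CPM in males. Here too female replicate 1 was the lowest and male replicate 1 the highest library, and the gap between the highest female and the lowest male was small. The log2 difference was 0.55 ± 0.21, with an adjusted p of 0.41 in edgeR. Hbb-bt, the second adult β globin of this strain, was at 2322, 3008 and 3682 CPM in females and at 5318, 3800 and 4269 CPM in males. Its difference was 0.57 ± 0.21 with an adjusted p of 0.40 in edgeR, and the order of the libraries was that of Hbb-bs. Without male replicate 1 the log2 differences of Hbb-bs and Hbb-bt were 0.40 and 0.42. Means ± SD (n = 3) were 3938 ± 830 CPM in females and 5782 ± 1030 CPM in males for Hbb-bs, and 3904 ± 577 CPM in females and 5539 ± 1440 CPM in males for Hba-a1.

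**Figure D1:**
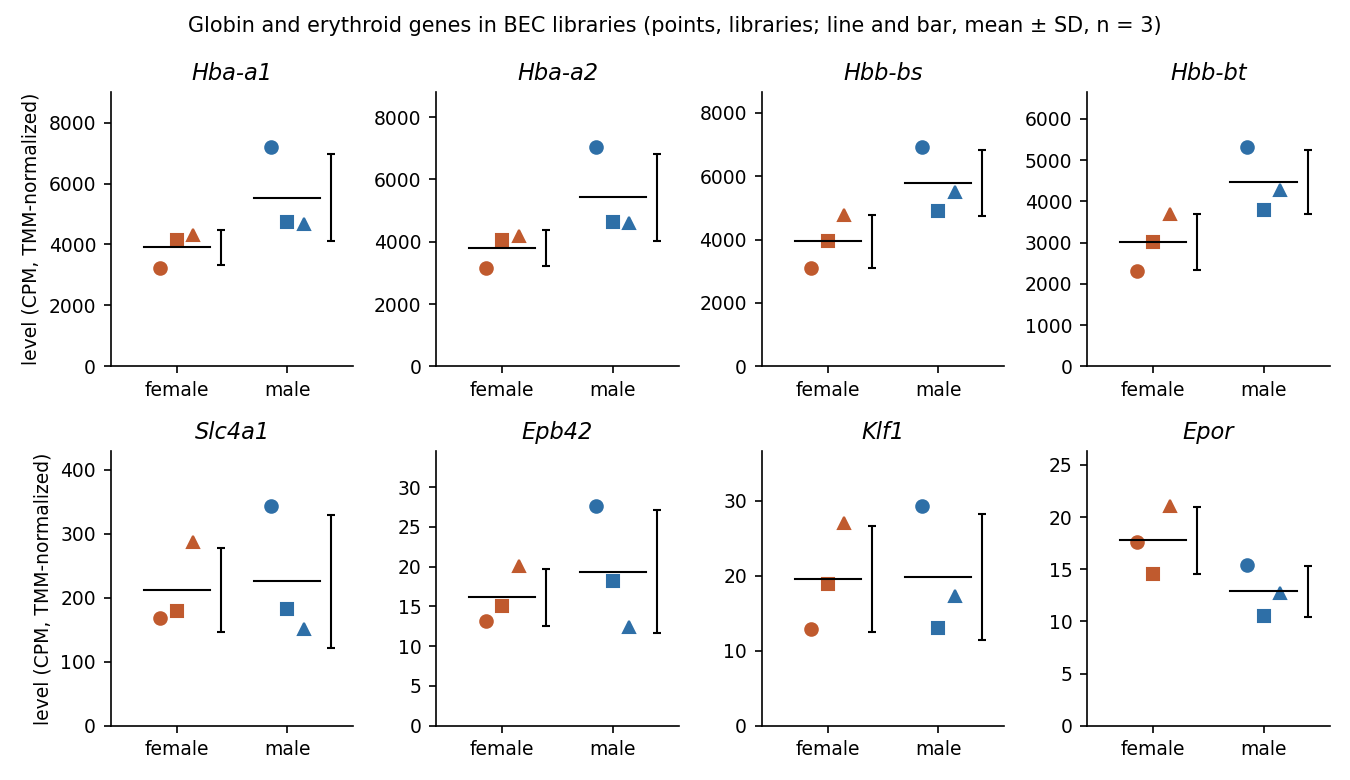
Level of each of the 8 members in CPM after TMM normalization, on linear axes from 0, by sex, where circles, squares and triangles are replicates 1, 2 and 3, lines are means and bars are ± SD over 3 libraries. The male points lie above all female points in the 4 globin panels and overlap them in the panels of Slc4a1, Epb42, Klf1 and Epor, and male replicate 1 is the highest library in all panels but that of Epor.

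The membrane genes did not show the separation seen for the globins. Slc4a1, which encodes the anion exchanger that is the most abundant protein of the red cell membrane, was at 169, 180 and 287 CPM in females and at 343, 182 and 151 CPM in males. Male libraries were both the highest and the lowest, and female replicate 3 was the second highest. Its log2 difference was 0.089 ± 0.32 with an adjusted p of 0.95 in edgeR. Epb42 was at 13.2, 15.1 and 20.1 CPM in females and at 27.6, 18.2 and 12.4 CPM in males, which is the same order of libraries as for Slc4a1. Its difference was 0.27 ± 0.27 with an adjusted p of 0.79 in edgeR. Without male replicate 1, the fitted differences were -0.35 for Slc4a1 and -0.078 for Epb42, so that the direction of both rested on this library. Slc4a1 was also below 0 without female replicate 1 (-0.043) and without female replicate 2 (-0.017).

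Klf1 was at 12.9, 19.0 and 27.0 CPM in females and at 29.3, 13.0 and 17.3 CPM in males. The sexes overlapped over nearly the whole range, with male replicate 1 and female replicate 3 highest. The log2 difference was 0.021 ± 0.33, with an adjusted p of 0.99 in edgeR, and it was -0.37 without male replicate 1. The direction also changed without female replicate 1, at -0.20, and without female replicate 2, at -0.0021.

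Epor was the only member with a fitted difference below 0. It was at 17.6, 14.6 and 21.0 CPM in females and at 15.4, 10.6 and 12.7 CPM in males. Male replicate 1 lay above female replicate 2, so the sexes overlapped. Its log2 difference was -0.46 ± 0.19 with an adjusted p of 0.46 in edgeR, and -0.61 without male replicate 1. When male replicate 1 or female replicate 2 was left out, the remaining libraries no longer overlapped, as 13.7% and 12.6% of all genes then had all males lower.

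**Figure D2:**
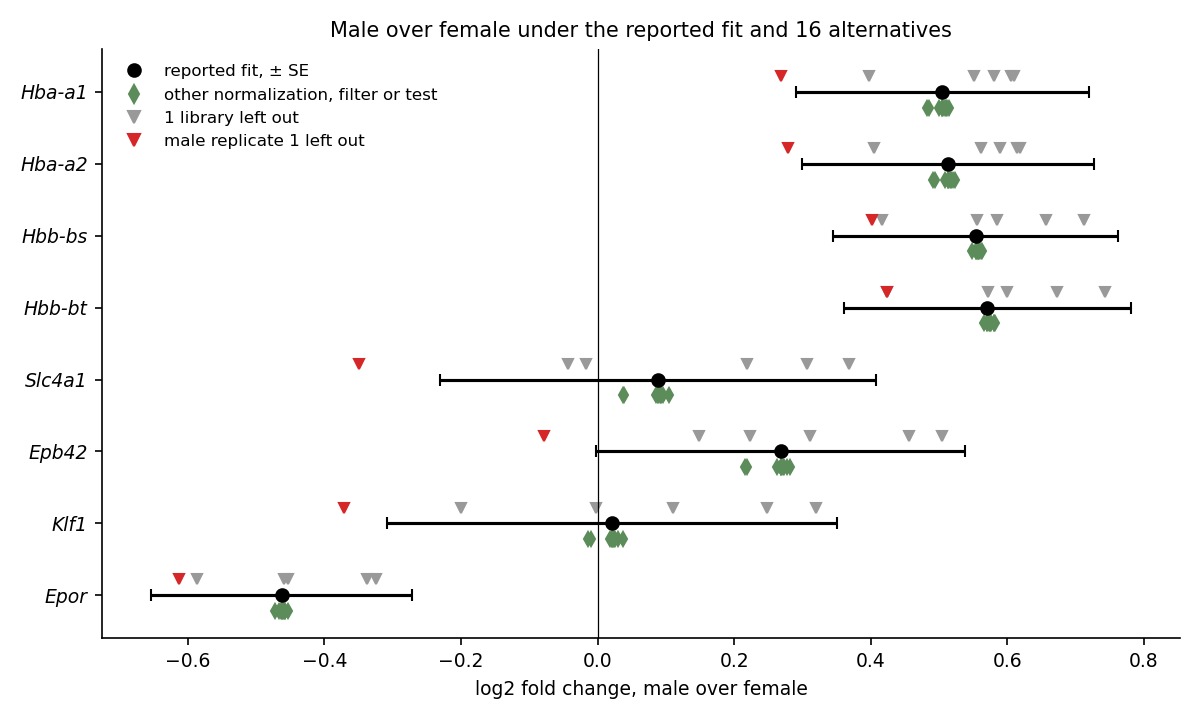
Log2 fold change of males over females for each member, with the reported fit (black, ± SE), other normalizations, filters and tests (green) and fits with 1 library left out (grey, or red for male replicate 1). The globin values stay above 0 and those of Epor below 0 in all fits drawn, whereas Slc4a1, Epb42 and Klf1 fall below 0 without male replicate 1.

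Per length, the globins were far above the other members. In CPM per kilobase of the main transcript (RPKM), the 6 libraries ranged from 4669 to 10423 for Hbb-bs, from 4875 to 10889 for Hba-a2, from 4394 to 9759 for Hba-a1 and from 3298 to 7554 for Hbb-bt, and these ranges overlapped. Slc4a1 followed at 33.2 to 75.5 RPKM. Klf1 (8.34 to 19.0 RPKM) and Epor (5.76 to 11.5 RPKM) overlapped, and Epb42 was the lowest at 3.01 to 6.71 RPKM, overlapping Epor. The ranges of the globins, of Slc4a1 and of Klf1 were thus separate from each other, and the order among neighbours with overlapping ranges was not resolved. With the length of all annotated exons instead, Hba-a1 was at 3340 to 7417 RPKM and Hbb-bs at 1901 to 4243 RPKM, so the order of α and β per length depended on the transcript model.

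Over all libraries of both sexes, the highest library was 1.99 times the lowest for Epor and 2.22 to 2.29 times the lowest for the other 7 members. Among the females, the coefficient of variation was 14.8% for Hba-a1 and 36.0% for Klf1, the lowest and highest of the 8. Among the males it was 17.4% for Hbb-bt and 45.8% for Slc4a1. In both sexes the coefficient of Slc4a1 and of Klf1 was larger than that of each globin.

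The share of all counts held by the 4 globins is scaled to the library total alone, with no further normalization between libraries. It was 1.27%, 1.45% and 1.67% in female replicates 1, 2 and 3 and 2.77%, 1.81% and 1.79% in male replicates 1, 2 and 3. All males were above all females, and the 95% Wilson intervals, which cover counting error only, were at most 0.00908 percentage points wide. The mean ± SD was 1.46% ± 0.20 in females and 2.13% ± 0.56 in males (n = 3 each). An exact permutation test, two-sided, gave p = 0.10, which is the smallest value that 3 against 3 libraries allow, and 0.20 after adjustment over the 4 values tested in this way. Without male replicate 1, the difference between the means was 0.339 percentage points instead of 0.663.

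The balance of α to β chains matters to red cells because unpaired chains precipitate. The ratio of α to β globin counts was 1.18, 1.18 and 1.01 in females and 1.16, 1.08 and 0.948 in males. The sexes overlapped, replicate 3 had the lowest ratio of either sex, and the exact permutation test, two-sided, gave p = 0.50 (0.50 adjusted). The ratio of Hbb-bt to Hbb-bs was narrower, at 0.749, 0.761 and 0.773 in females and 0.768, 0.773 and 0.775 in males, with an exact permutation p of 0.30 (0.40 adjusted). The ratio of Hba-a1 to Hba-a2 was 1.03 in each female library and 1.02 in each male library. These did not overlap, but the difference was only -0.0090 on the log2 scale, with an exact permutation p of 0.10 (0.20 adjusted) and with most of the sequence of these copies shared.

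Set against the other members within each library, the globins were higher in males relative to Epor. There were 670, 1040 and 805 globin counts for each Epor count in females and 1720, 1713 and 1501 in males, which do not overlap, and the difference of the mean log2 ratios was 0.99. For Slc4a1 the ratios were 69.9, 84.4 and 59.1 in females and 77.2, 99.4 and 126 in males. The sexes overlapped because male replicate 1 lay below female replicate 2. For Klf1 the ratios were 917, 800 and 628 in females and 905, 1388 and 1102 in males, with male replicate 1 just below female replicate 1. For Epb42 they were 899, 1003 and 843 in females and 959, 996 and 1537 in males, and they overlapped as well. Male replicate 1, the library with most globin, was thus within the female range for 3 of the 4 ratios, and these ratios were not tested.

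**Figure D3:**
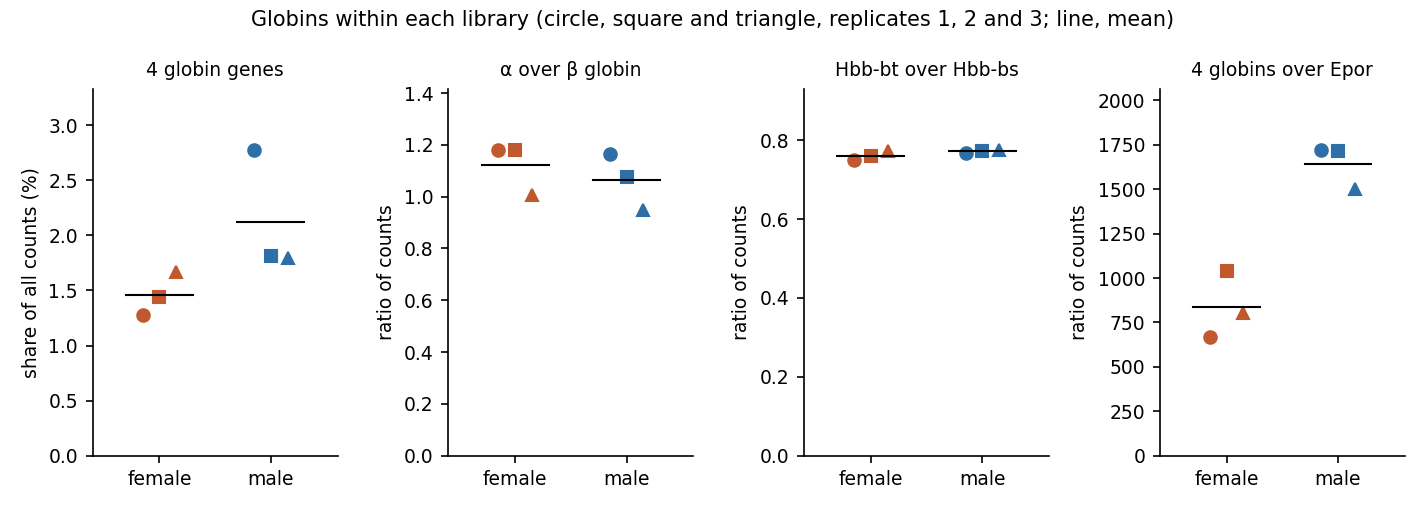
From left to right, the share of all counts held by the 4 globin genes (%), the ratio of α to β globin counts, the ratio of Hbb-bt to Hbb-bs counts and the number of globin counts per Epor count, in each library, with linear axes from 0 and lines at the means. The sexes are separate in the first and last panels and overlap in the others, and replicate 3 (triangle) is lowest for α over β in both sexes.

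Other genes with a part in erythroid cells were read as lists, the members left out. Not all of them are particular to these cells, so a list cannot be read as erythroid cells alone. In the list of membrane and surface genes, 19 of 19 passed the filter. In either direction 0 were called with edgeR or DESeq2, against 0.0411% and 1.31% of all genes. The median log2 difference was 0.018, against -0.0012 over all genes, and 1 gene had an unadjusted p under 0.05, against 9.79% of all genes. This median rested on single libraries, at -0.29 without male replicate 1, where 5 genes had all males lower (as 13.7% of all genes did without this library), and at 0.28 without female replicate 3. The 3 most abundant were Epb41 (protein 4.1, which joins spectrin to actin), Aqp1 (a water channel that endothelium also makes) and Stom (stomatin). Their log2 differences were 0.093 ± 0.16, -0.42 ± 0.33 and -0.30 ± 0.15 (SE), with adjusted p of 0.89, 0.74 and 0.55 in edgeR. Aqp1 was highest in female replicate 3, at 137 CPM against 72.2 and 73.3 CPM in the other females and 104, 46.3 and 61.6 CPM in males. The gene with the unadjusted p under 0.05, named here after its values were seen, was Tmod1, the gene of the actin-capping tropomodulin. It was at 39.9, 35.2 and 30.5 CPM in females and 47.3, 53.7 and 43.6 CPM in males. All males were higher, as for 7.25% of all genes, and its log2 difference was 0.45 ± 0.14 (adjusted p 0.30 in edgeR).

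Of the erythroid transcription factors, 14 of 14 were tested and 0 were called with edgeR, against 0.0411% of all genes. At an unadjusted p under 0.05 there were 2, where 9.79% of all genes reached this level in either direction. The median difference was -0.020, or -0.14 without male replicate 1 and 0.075 without male replicate 3. The most abundant were Ikzf1 (Ikaros), E2f2 (a cell cycle factor) and Lmo2 (the bridge of the GATA and Tal1 complex), with log2 differences of 0.12 ± 0.14, 0.37 ± 0.15 and -0.17 ± 0.11 and adjusted p of 0.82, 0.47 and 0.67 in edgeR. Named after its values were seen, Nfe2, a factor of globin and platelet genes that granulocytes also express, was at 81.5, 80.9 and 82.0 CPM in females and 111, 136 and 121 CPM in males. The females were nearly equal and all males lay above them, as for 7.25% of all genes, by 0.59 ± 0.11 on the log2 scale. Its adjusted p was 0.097 in edgeR and 0.0020 in DESeq2. It was the only gene that DESeq2 called from this list, against 1.31% of all genes it tested.

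Of 13 genes of erythropoietin signalling, 12 were tested and 0 were called with edgeR, against 0.0411% of all genes. The median difference was 0.017, or -0.012 without female replicate 3 and 0.11 without female replicate 1. An unadjusted p under 0.05 was reached by 1 gene in each direction, where 9.79% of all genes reached it in either direction. The gene lower in males was Kit, named after its values were seen, at -0.42 ± 0.19 (adjusted p 0.50 in edgeR), and its libraries overlapped. Epo itself, named although it was not among the most abundant, had 0 counts in every library, which allows a level of up to 0.0514 to 0.0629 CPM. The most abundant were the kinase gene Lyn, the desaturase gene Scd1 and the signal transducer gene Stat5b, at log2 differences of -0.036 ± 0.12, -0.32 ± 0.15 and 0.034 ± 0.12 and adjusted p of 0.95, 0.52 and 0.95 in edgeR. Socs3, a feedback inhibitor of cytokine receptors, named after its values were seen, was at 10.1, 8.48 and 9.65 CPM in females and 15.6, 20.5 and 14.9 CPM in males. All males were higher for Socs3, as for 7.25% of all genes, with a log2 difference of 0.85 ± 0.17. Its adjusted p was 0.11 in edgeR and 0.0014 in DESeq2. It was the only gene that DESeq2 called from this list, against 1.31% of all genes it tested.

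Of 20 red cell enzymes and late maturation genes, 19 were tested and 0 were called with edgeR or DESeq2, against 0.0411% and 1.31% of all genes. At an unadjusted p under 0.05, 2 were higher in males and 1 was lower, where 9.79% of all genes reached this level in either direction. The median difference was 0.073, or -0.042 without male replicate 1 and 0.19 without female replicate 3. The most abundant were Gpx1 and Prdx2, which remove peroxides, and the carbonic anhydrase gene Car2. Their log2 differences were 0.11 ± 0.18, -0.020 ± 0.18 and 0.027 ± 0.20, with adjusted p of 0.88, 0.98 and 0.98 in edgeR. None of these 3 separated the sexes. The next genes are named after their values were seen. Those with an unadjusted p under 0.05 and a higher level in males were Bpgm, which makes the 2,3-bisphosphoglycerate that lowers the oxygen affinity of haemoglobin, and Alas2, the first enzyme of haem synthesis in erythroid cells, at log2 differences of 0.59 ± 0.18 and 0.50 ± 0.20 and adjusted p of 0.30 and 0.44 in edgeR. Bpgm had all males higher, as did 7.25% of all genes, and Alas2 overlapped. The ubiquitin ligase gene Mkrn1 also had all males higher, by 0.23 ± 0.12, with an unadjusted p of 0.097 and an adjusted p of 0.59 in edgeR. The gene that was lower, the red cell pyruvate kinase gene Pklr, was at -0.89 ± 0.30 (adjusted p 0.36 in edgeR), and its libraries overlapped.

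Globins other than the adult pairs were scarce. Of 6 such genes, 2 were tested, and neither was called with edgeR or DESeq2 or reached an unadjusted p under 0.05. Hbq1b, a θ globin gene of the α cluster, was at 2.50, 2.46 and 3.94 CPM in females and 5.37, 4.97 and 2.64 CPM in males, with a log2 difference of 0.55 ± 0.33 (adjusted p 0.63 in edgeR). Hbq1a, its near copy, was at 0.938, 0.549 and 1.30 CPM in females and 1.46, 1.64 and 0.675 CPM in males. The embryonic β-like gene Hbb-bh1 had 29 counts over the 6 libraries. Hba-x and Hbb-y, the embryonic α-like and β-like genes, had 3 counts each, and Hbb-bh2 had 0, these last 3 being named after their values were seen. The globin counts of these libraries were thus of the adult genes.

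**Figure D4:**
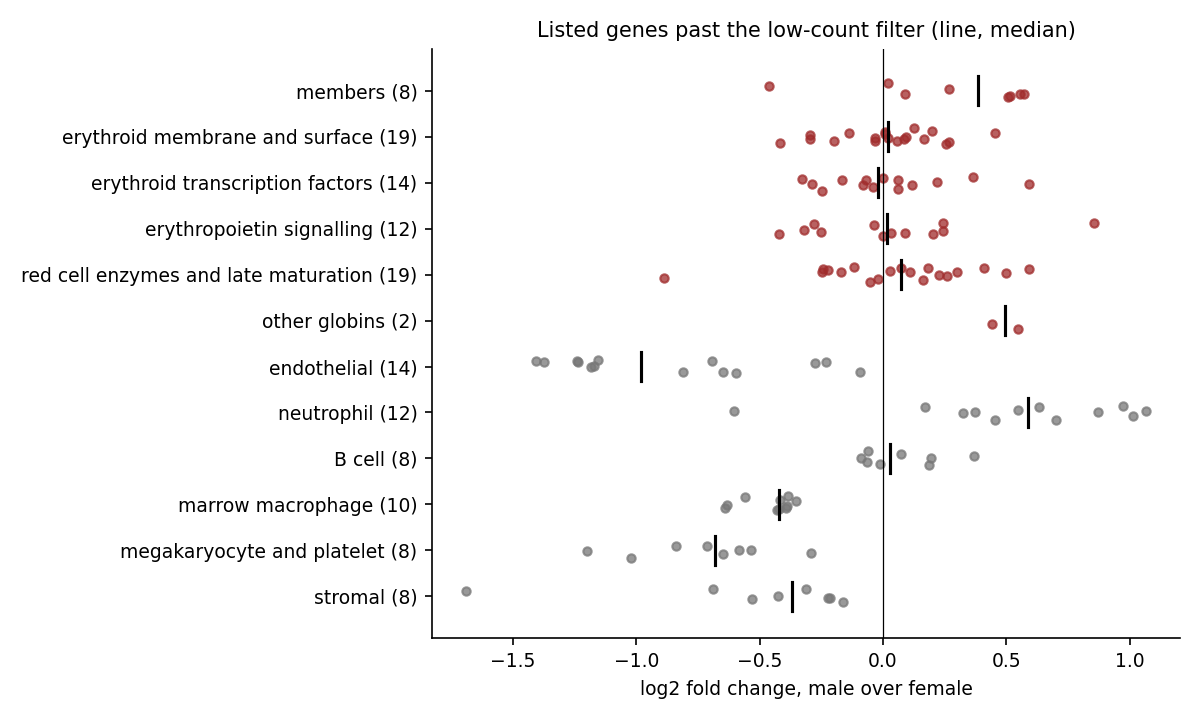
Log2 fold change of males over females for every tested gene of each list, with the number of genes in brackets, where red points are members and erythroid lists, grey points are markers of other cells and black lines are medians. The medians of 4 erythroid lists lie between -0.020 and 0.073 and change sign when single libraries are left out, that of the 2 other globins is at 0.50 (0.30 without female replicate 2 and 0.78 without female replicate 3), that of the neutrophil genes at 0.59 and that of the endothelial genes at -0.98.

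The genes whose levels ran most like the mean of the 8 members over the 6 libraries were sought among 12249 genes that averaged 5 CPM or more and had a count in every library. By Pearson's r of log2 CPM, given as a description over 6 libraries that share depth and cell make-up with the members, they included Tspan33 (0.98), Gm12840 (0.96), L1cam (0.96), Frat2 (0.96), Fech (0.96), Gm13140 (0.96) and Cdyl2 (0.95). Among them, Tspan33 is a tetraspanin gene of erythroid progenitors and Fech encodes the enzyme that puts iron into haem. Tspan33 was at 24.2, 26.9 and 31.4 CPM in females and at 40.4, 25.7 and 26.2 CPM in males. The other genes named are a lncRNA (Gm12840), a processed pseudogene (Gm13140) and 3 protein-coding genes. Male replicate 1 was the highest and female replicate 1 the lowest library for these 7 genes, and none was called between the sexes with edgeR, where the adjusted p was lowest for Fech at 0.66.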

How the data were processed

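RNA of cells that the paper describes as purified BECs was measured in 6 libraries, 3 per sex. The authors deposited the whole-number count of reads on each gene, not normalized, with a column for every library. Per the labels, polyadenylated RNA gave directional libraries of 40-nucleotide paired reads, and the submitters' processing notes name TopHat2 2.0.11, featureCounts and mm9 (NCBIM37). The methods of the paper instead name total RNA, 100-nucleotide reads, STAR and GRCm39. Which of these made the table, and whether counting used strand or reads that fit several genes, is not given in the sources used here. GENCODE M39 (GRCm39) matched 31073 of 37991 identifiers.

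Males were compared with females in edgeR 4.0.16 (R 4.3.3) by TMM normalization, the default filter by sex, robust quasi-likelihood fits and adjustment over all genes tested, with DESeq2 1.42.0 as an alternative. A gene was called at an adjusted p under 0.05. The fits were tested on simulated counts. Single values per library were compared by exact permutation tests in Python 3.11.15. P-values measure only the spread between these libraries, which may be technical. Lengths are those of the Ensembl canonical transcripts, and promoters come from RefSeq (GRCm38.p6).

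The members, lists and rules were chosen with earlier results of these data known. Genes were named by rule: the members, the 3 most abundant and every called gene of each erythroid list, the 2 most abundant of each other list with Cdh5, Pecam1 and Emcn, and the 8 genes most like the members, of which 1 is not reported here. Genes outside the rule are marked in the text. Alternatives were other size factors, total counts, the members or genes over 1% of a library left out of the totals, no filter or at least 10 counts in every library, DESeq2, no robust estimation, the replicate block, a pseudocount of 0.5 for ratios and each library left out. The α to β ratio from 1 copy of each was added after seeing the data.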

Additional observations from a re-analysis of the deposited data

How the results depend on the processing

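The 4 globins stayed above 0 and Epor below 0 under all 16 alternatives to the reported fit, and the libraries did not overlap for 4 members under each other scaling or filter. Leaving out a library cannot make separate groups overlap unless the refitted scaling does so, and here it only added Epor. With 1 library left out in turn, the log2 difference was 0.27 to 0.61 for Hba-a1, 0.28 to 0.62 for Hba-a2, 0.40 to 0.71 for Hbb-bs, 0.42 to 0.74 for Hbb-bt, -0.35 to 0.37 for Slc4a1, -0.078 to 0.51 for Epb42, -0.37 to 0.32 for Klf1 and -0.61 to -0.32 for Epor, and 0 members were called. Klf1 was at -0.0097 in edgeR with the replicate block and at -0.014 in DESeq2 with it. The globin share differed by 0.339 to 0.83 percentage points with 1 library left out and by 0.69 with the members left out of the totals. The difference in the log2 ratio of α to β was -0.16 to -0.00041 with 1 library left out, and -0.075 from 1 copy of each.

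The number of genes called over the whole table was 8 in the reported fit, 14 with total counts alone, 98 with no filter on low counts, 354 with DESeq2, and 5 to 96 with 1 library left out (96 without male replicate 3, 5 without female replicate 2). The same-numbered libraries of the sexes were checked by the correlation of their deviations from the mean of their sex, which was 0.19, 0.04 and 0.30 for numbers 1, 2 and 3. The same-numbered pair was the highest for numbers 1 and 3, but male replicate 2 correlated best with female replicate 1 (0.13). This does not settle whether the numbers are pairs. The reported fit took no pairs, as the study's methods name none. With the replicate block, 428 genes were called in edgeR and 714 in DESeq2. With this block 0 members were called in edgeR and 2 in DESeq2, Hbb-bs at 0.56 (adjusted p 0.023) and Hbb-bt at 0.58 (adjusted p 0.018). DESeq2 and both block fits called 1 transcription factor and 1 erythropoietin signalling gene each. DESeq2 with the block also called 1 membrane gene and 1 red cell enzyme gene, and 0 to 1 gene of the latter list was called with 1 library left out, 1 being without male replicate 3. The cause of these changes was not tested. The depth of all libraries was high for the globins, and at the level of the embryonic globins and Epo differences were not detectable.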
